A study of Rattus norvegicus with 4 samples.

Results

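Long peaks, of at least 1000 bp on chromosomes 1 to 20, were taken from the lists of a CD44 chromatin immunoprecipitation (ChIP-seq) in rat nucleus pulposus cells, which fill the gel-like core of the intervertebral disc. The members were chosen by the deposited peak length alone, separately in each list. There were 2670 long peaks among the 258987 serum peaks on these chromosomes (1.03%) and 6324 among the 379113 starved peaks (1.67%), so 8994 of the 699216 peaks of the whole series were members. The serum library came from cells grown in DMEM-F12 medium with 10% fetal bovine serum. The starved library came from cells kept in medium with 0.1% serum. Both cultures are described only as nucleus pulposus cells of Rattus norvegicus, with no strain, age or passage in the sources used here, and 1 CD44 library was made from each, next to 1 input library made without an antibody. With 1 library per condition no difference between the lists has a replicate behind it, no p-value is given, and each value describes these libraries.

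CD44 is a receptor for hyaluronan in the cell membrane. Its intracellular part can be released by proteases and has been found in the nucleus. In ChIP-seq, a protein bound at a point gives a peak about as wide as the sequenced fragments, while a protein or a signal spread along the DNA gives a wide one. Peak length therefore describes how far the called signal reached. The pileup, the number of fragments stacked at the highest point, describes how tall it was. Peaks of a list were never less than 151 bp apart, so a length may include short gaps joined in peak calling. Withdrawal of serum removes growth factors and is widely used to bring cultured cells to rest.

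Read totals were not used here, and the lists differed in the scale of their values. The lowest local background, the level of fragments the peak caller tested a peak against, came to 1.502 stacked fragments for serum and 0.0996 for the starved library, as worked back from pileup and fold. Whether the authors' processing scaled these pileups is not known, so this gap may hold depth, scaling or both, which cannot be told apart here. The shortest serum peak was 272 bp and the shortest starved peak 217 bp. The libraries were size-selected by the labels' protocols before paired-end sequencing. Pileups and fold enrichments are therefore read within a list. Positions are on Rnor_6.0. A sequence and annotation of that build were not used here, so the peaks are given by position, without genes, repeats or bases.

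Long peaks were rare in both lists and reached further in the starved one. They held 3.27 Mb, or 3.13% of the peak-covered bases, among serum peaks, and 9.57 Mb, or 8.31%, among starved peaks. The median length was 1139 bp in serum (quartiles 1056 and 1285 bp) and 1318.5 bp in starved cells (quartiles 1128 and 1684 bp). Set against the shortest peak of the same list, the median was 4.19 times as long for serum and 6.08 times for starved peaks.

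The lists parted most among the longest peaks. Between 1 and 2 kb (1000 bp up to under 2000 bp) there were 2607 serum and 5416 starved peaks. Between 2 and 3 kb there were 53 and 701, and at 3 kb or more 10 and 207. The longest serum peak was 6134 bp and the longest starved peak 6689 bp, so the upper ends were close although the numbers differed. Peaks on either side of the limit of 1000 bp had the same median pileup. The 761 serum peaks up to 50 bp under it and the 605 less than 50 bp above it both had a median pileup of 8, and 29.2% and 31.7% of them overlapped a starved peak. A local background of more than 2 times the lowest of the list held for 16.8% and 22.8% of them. Starved peaks there numbered 810 and 690, had a median pileup of 5 on both sides, and overlapped a serum peak in 48.9% and 48.0%. They had such a background in 76.4% and 76.2%.

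**Figure D1:**
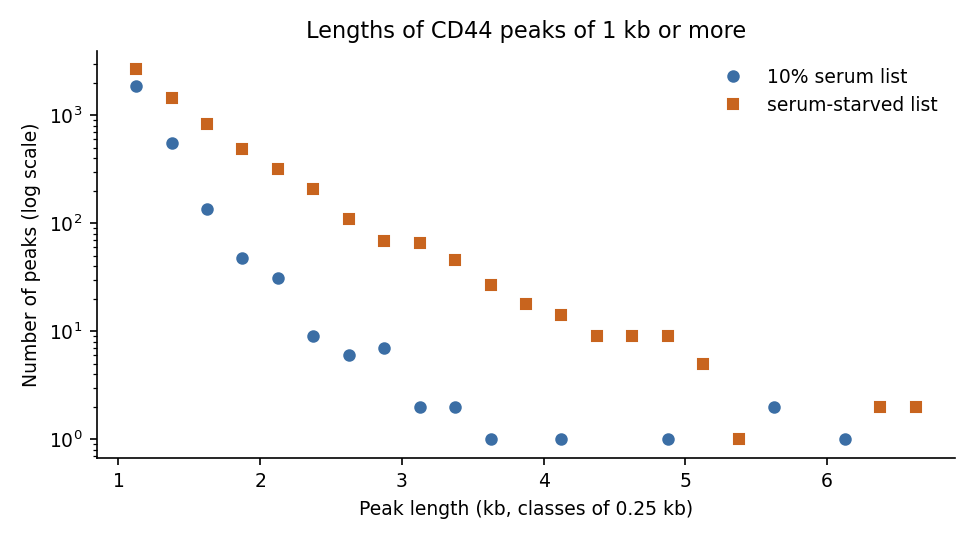
Number of long peaks by length in classes of 250 bp, on a log scale, with blue circles for the serum list and orange squares for the starved list and classes without a peak left out. The serum numbers drop faster, to 10 peaks at 3000 bp or more against 207 in the starved list.

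Longer peaks were also taller. For serum peaks the median pileup was 7 fragments below 1000 bp (range 4 to 251). It was 9 between 1 and 2 kb (range 5 to 171), 19 between 2 and 3 kb (range 6 to 124) and 29.5 at 3 kb or more (range 10 to 67). In the starved list it was 2 below 1000 bp (range 1 to 159) and then 6 (range 1 to 154), 9 (range 3 to 43) and 11 (range 4 to 36). The ranges of the classes overlapped widely, and the tallest starved peak was not a long one. Length and pileup come from the same fragments, so this is a description of the members and not a test.

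A long peak did not need a tall summit. Among starved long peaks, 20 had a pileup of 1, the longest of them 1371 bp, and 248 (3.92%) had a pileup of at most 2. Of the shorter starved peaks, 67.9% were that low. In serum, 29 long peaks had a pileup of 5 and 762 (28.5%) one of at most 7, against 68.5% of shorter serum peaks.

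Most starved long peaks passed the usual q-value limit and many serum ones did not. A q of at most 0.05 held for 6070 starved long peaks (96.0%, exact 95% binomial interval 95.5 to 96.5) and for 51.1% of the shorter starved peaks. It held for 1489 serum long peaks (55.8%, interval 53.9 to 57.7) and for 19.3% of the shorter serum peaks. All intervals given for shares are of this kind and cover counting error only, and peaks that lie near each other are not independent. Within the serum list the median fold enrichment, as deposited by the authors, was 3.20 for long peaks (quartiles 2.67 and 3.76) and 2.69 for shorter ones. Within the starved list it was 5.49 for long peaks (quartiles 4.10 and 7.72) and 2.55 for shorter ones.

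The local background, set against the lowest of its own list, was raised under most starved long peaks. It was more than 2 times the lowest of the list, called raised here, for 5279 of the 6324 (83.5%, interval 82.5 to 84.4), against 24.5% of shorter starved peaks. With length the share went from 82.0% between 1 and 2 kb to 91.0% between 2 and 3 kb and 96.6% at 3 kb or more. Among serum peaks a raised background held for 789 long peaks (29.6%, interval 27.8 to 31.3), against 9.12% of shorter ones. Here the classes gave 28.6%, 69.8% and, at 3 kb or more, 6 of 10 peaks. The lowest background was 0.0996 stacked fragments in the starved list and 1.502 in the serum list. A raised background is thus a different level in each list, and these shares are read within a list. The lowest background of the list lay under 66 starved long peaks (1.04%), where 14.1% of all starved peaks had it. It lay under 614 serum long peaks (23.0%), where 27.1% of all serum peaks had it. Whether the background plays a part in the length of these peaks was not tested.

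Long peaks were found again in the other list more often than peaks in general. Of the serum long peaks, 1102 (41.3%, interval 39.4 to 43.2) overlapped a starved peak by at least 1 bp, where 15.3% of all serum peaks on these chromosomes did. Of the starved long peaks, 4164 (65.8%, interval 64.7 to 67.0) overlapped a serum peak, where 10.4% of all starved peaks did. A longer interval meets more peaks by its size alone, so the middle base of each peak, a point whatever the length, was looked up as well. It lay inside a starved peak for 577 serum long peaks (21.6%, interval 20.1 to 23.2), against 9.27% of all serum peaks. It lay inside a serum peak for 1848 starved long peaks (29.2%, interval 28.1 to 30.4), against 6.69% of all starved peaks. The share of bases gave the same order. Starved peaks covered 22.4% of the bases of serum long peaks and 9.32% of those of shorter serum peaks. Serum peaks covered 27.5% of the bases of starved long peaks and 7.11% of those of shorter ones.

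Overlap of at least 1 bp rose with length in both lists, as a longer interval also would by its size. For serum peaks the overlap of 1 bp or more was 40.3% between 1 and 2 kb (interval 38.4 to 42.2), 79.2% between 2 and 3 kb (interval 65.9 to 89.2) and 9 of 10 peaks at 3 kb or more (interval 55.5 to 99.7). For starved peaks the same classes gave 61.9% (interval 60.6 to 63.2), 87.3% (interval 84.6 to 89.7) and 96.6% (interval 93.2 to 98.6). By the middle base the starved shares were 28.2%, 34.1% and 38.2%, and the intervals of the last pair, 30.6 to 37.7 and 31.5 to 45.2, overlapped. The serum shares by the middle base were 21.3%, 39.6% (interval 26.5 to 54.0) and 2 of 10 peaks, with no steady rise.

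**Figure D2:**
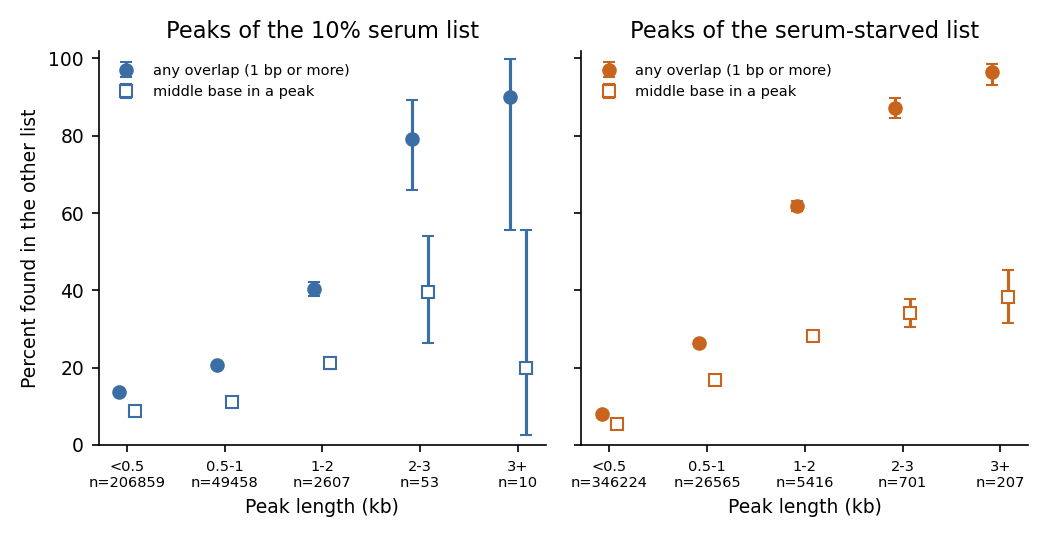
Percent of peaks found in the other list by length class, for serum peaks on the left and starved peaks on the right. Filled circles are any overlap and open squares the middle base, bars are exact 95% binomial intervals, and n is the number of peaks. Both measures are higher from 1000 bp on than below 500 bp. For the middle base of the 10 longest serum peaks (20%) the interval of 2.52 to 55.6% also holds the 8.70% found below 500 bp.

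Since long peaks were taller, they were also set beside shorter peaks of like pileup, and here the lists gave different pictures. In the starved list the middle base of long peaks was found in the serum list more often than that of all shorter peaks together at each pileup, but not more often than that of peaks of 500 bp up to 1 kb where the pileup was high. At a pileup of 1 to 2 the share was 15.7% for long peaks (interval 11.4 to 20.9) and 4.77% for shorter ones. At 3 to 4 it was 15.7% against 7.28%, at 5 to 9 it was 29.3% (interval 27.6 to 30.9) against 10.4%, and at 10 or more it was 42.6% (interval 40.3 to 45.0) against 19.8%. Most shorter peaks were under 500 bp. For starved peaks of 500 bp up to 1 kb alone the shares in these classes were 7.26%, 13.2%, 22.8% and 44.9% (interval 42.9 to 46.9 for the last). At a pileup of 10 or more these peaks were thus level with the long ones, and peaks of 2 kb or more were at 39.4% (interval 34.8 to 44.1).

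By the middle base, serum long peaks were not found more often than shorter ones of like pileup from 8 on, and were level with them below. At a pileup of 4 to 7 the middle base lay in a starved peak for 4.59% of long peaks (interval 3.22 to 6.33) and 4.26% of shorter ones. At 8 to 11 the shares were 7.20% (interval 5.74 to 8.89) and 9.48%, at 12 to 19 they were 49.9% (interval 44.7 to 55.1) and 58.4%, and at 20 or more 63.2% (interval 58.5 to 67.8) and 78.6%. In this last class the share fell with length, from 81.2% under 500 bp and 73.6% up to 1 kb to 65.2% between 1 and 2 kb and 39.4% of 33 peaks at 2 kb or more (interval 22.9 to 57.9). The difference between the lists in this respect was not tested, and pileups still vary within a class.

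**Figure D3:**
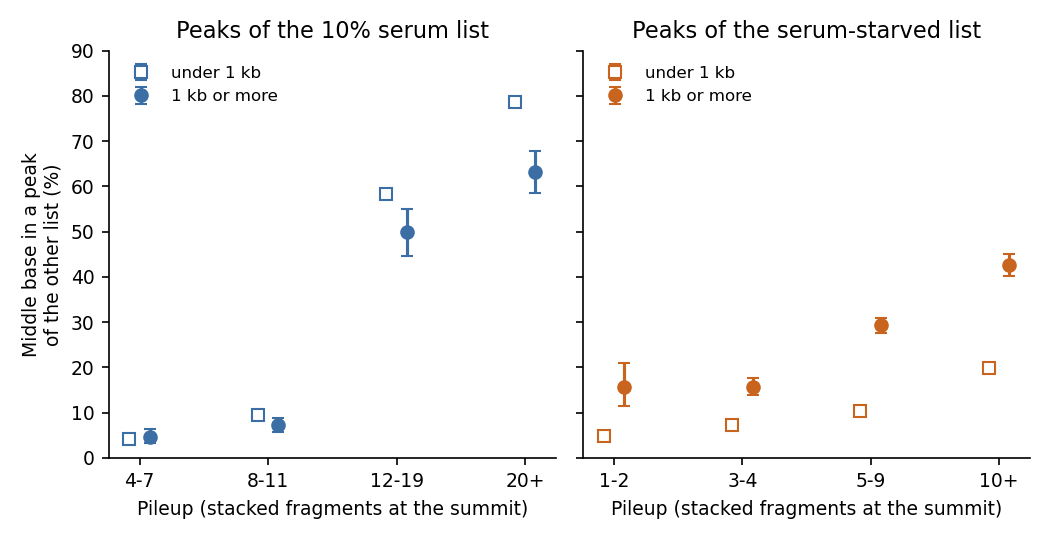
Percent of peaks whose middle base lies in a peak of the other list, by pileup class, for serum peaks on the left and starved peaks on the right. Filled circles are peaks of 1 kb or more, open squares shorter peaks, and bars exact 95% binomial intervals. In the starved list the long peaks lie above all shorter ones as 1 group, although those of 500 bp up to 1 kb, not drawn apart, reach 44.9% at a pileup of 10 or more against 42.6% for long peaks, and in the serum list they lie level at a pileup of 4 to 7 and below from 8 on.

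Long and shorter peaks were also compared at like background. Where the background was not raised, the middle base was found in the serum list for 22.3% of 1045 starved long peaks (interval 19.8 to 24.9) and 5.22% of shorter peaks. With a raised background the shares were 30.6% of 5279 and 9.69%. For serum peaks they were 7.87% of 1881 long peaks (interval 6.69 to 9.18) against 5.47% at the lower background, and 54.4% of 789 (interval 50.8 to 57.9) against 45.7% at a raised one. The long peaks were above the shorter ones in all 4 of these comparisons, with the wider gap among starved peaks, and that difference between the lists was not tested. Pileup was left free in these comparisons, and at like pileup the serum long peaks were level with the shorter ones or below them.

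Most long peaks did not meet a long peak of the other list, although they did so more often than peaks in general. Of the serum long peaks, 374 (14.0%) overlapped a long starved peak, where 2.12% of all serum peaks did. Of the starved long peaks, 385 (6.09%) overlapped a long serum peak, where 0.379% of all starved peaks did. These are overlaps of at least 1 bp, which a longer interval also meets more often by its size. Of the 4164 starved long peaks with a counterpart, 1146 met more than 1 serum peak, and of the 1102 serum long peaks with one, 302 met more than 1 starved peak, so most met a single peak. For 33.9% of those 1102 a peak met was itself long. The starved long peaks made 5514 overlaps with serum peaks in all. In 4035 of these overlaps (73.2%) the serum peak lay wholly inside the starved peak. The longest serum peak that each starved long peak with a counterpart met had a median of 487 bp. The starved peaks of 3000 bp or more met 2.27 serum peaks each on average, and 76.8% of them met at least 2. In the other direction the 10 serum peaks of 3000 bp or more met 3.20 starved peaks on average. Over the peaks with a counterpart, the length of a long peak and that of the longest peak it met had a Spearman rho of 0.207 for the 4164 starved and 0.121 for the 1102 serum long peaks, as a description across peaks of the same libraries.

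Serum peaks covered the inside of starved long peaks more than their ends. Each peak was cut into 10 equal parts, and the parts at like distance from either end were put together. In starved peaks of 3 kb or more that had a counterpart, the outermost parts were covered in 27.9% of their bases, the next inwards in 37.0%, and the remaining ones in 40.4 to 43.5%. In those between 1 and 2 kb the same values were 27.5%, 40.1% and 44.4 to 44.8%. Across serum long peaks the coverage by starved peaks was flatter, with 50.1% in the outermost parts and 52.7 to 53.2% further in between 1 and 2 kb.

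Serum long peaks without a counterpart were the lower ones. The 1568 of them had a median pileup of 8 (quartiles 7 and 9) and the 1102 with one a median of 14 (quartiles 9 and 24). A raised background held for 10.7% and 56.4% of them. The 2160 starved long peaks without a counterpart had a median pileup of 5 (quartiles 3 and 7), against 8 (quartiles 5 and 12) for those with one. Here a raised background was common on both sides, at 79.7% and 85.4%, and 1996 (92.4%) of the starved peaks without a counterpart had a q of at most 0.05.

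Long peaks lay close together in the starved list. Another long peak was found within 10 kb of 2680 of the 6324 (42.4%, interval 41.2 to 43.6), and within 1 kb of 1507 (23.8%, interval 22.8 to 24.9). Shorter starved peaks had a long peak within 10 kb in 6.99% and within 1 kb in 2.0%. The serum long peaks were more scattered, with a long neighbour within 10 kb for 287 (10.7%, interval 9.60 to 12) and within 1 kb for 77 (2.88%). Shorter serum peaks had one in 3.20% and 0.499%. The median gap to the next long peak was 210 kb in serum (quartiles 54.5 and 541 kb) and 24.2 kb in starved cells (quartiles 1.09 and 142 kb). The starved list held 2.37 times as many long peaks, which shortens its gaps.

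Starved gaps were counted in classes that widen with distance, and the classes between 3000 and 10000 bp held the fewest. Of the 6324 gaps, 647 were up to 300 bp, 401 were 300 to 500 bp, 459 were 500 to 1000 bp and 634 were 1000 to 2000 bp. Further out, 245 were 2000 to 3000 bp, 127 were 3000 to 5000 bp and 167 were 5000 to 10000 bp. The much wider classes beyond held 628 at 10000 to 30000 bp and 1082 at 30000 to 100000 bp. Per base of class width the numbers fell throughout, without a second rise. No gap between any peaks of either list was under 151 bp.

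To see how far runs of neighbouring peaks reached, all peaks of a list, short ones included, were joined at gaps of up to 1 kb, and stretches with at least 1 long peak were kept. The 6324 starved long peaks fell into 5082 stretches of 4 peaks in the median, with a median span of 3942.5 bp, and the 2670 serum ones into 2598 stretches of 1 peak in the median, with a median span of 1321 bp. Starved spans had a second maximum near 6 kb. There were 333 stretches of 5000 to 5499 bp, 436 of 5500 to 5999 bp and 513 of 6000 to 6499 bp, and then 246 of 6500 to 6999 bp and 114 of 7000 to 7499 bp. In all, 1814 (35.7%) spanned 5 kb or more and 286 (5.63%) 7 kb or more. Peaks made up 71.0% of the bases of the stretches of 6000 to 6499 bp, with a median of 6 peaks each. Of these 513, 487 (94.9%) overlapped a serum peak by at least 1 bp, against 47.1% of the stretches of 1000 to 1499 bp. A longer span meets more peaks by its size alone. Serum peaks covered 20.1% of the bases of the stretches of 1000 to 1499 bp and 21.2% at 6000 to 6499 bp. Among serum stretches only 8 fell in the class of 6000 to 6499 bp, and 74 (2.85%) spanned 5 kb or more.

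The second maximum was seen only with gaps of up to 1 kb. With gaps of up to 500 bp the starved spans fell steadily, from 185 at 5000 to 5499 bp and 164 at 5500 to 5999 bp to 150 at 6000 to 6499 bp. Beyond that they dropped to 73 at 6500 to 6999 bp and 15 at 7000 to 7499 bp. What sequence lies under these stretches was not analysed here.

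**Figure D4:**
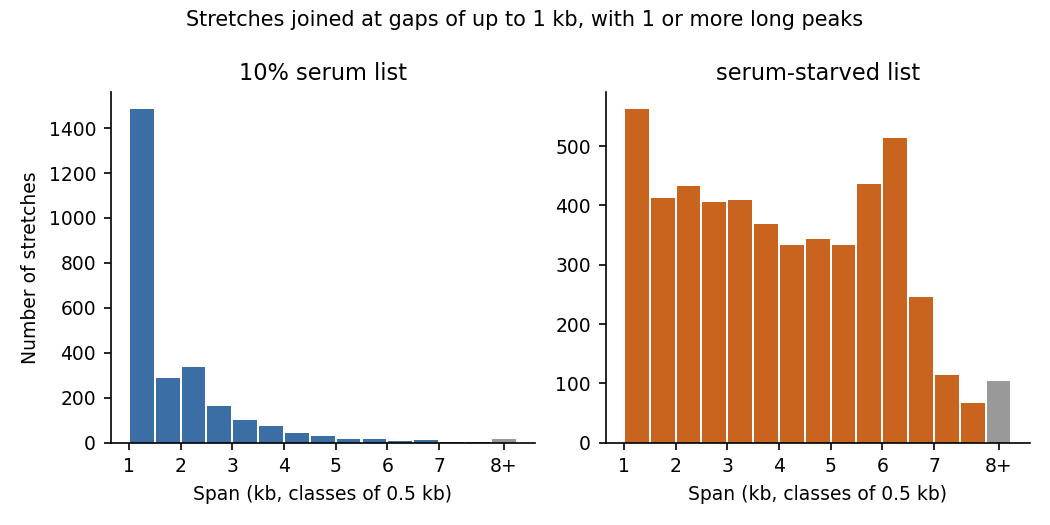
Spans of stretches made by joining peaks of a list at gaps of up to 1 kb and holding at least 1 long peak, in classes of 500 bp, for the serum list on the left and the starved list on the right, with different vertical scales and all spans of 8 kb or more in the grey bar. The starved spans rise again to 513 stretches at 6000 to 6499 bp and then fall, while the serum spans are mostly under 1500 bp.

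Serum long peaks formed a few dense groups that starved long peaks did not share. Joined at gaps of up to 10 kb, 15 serum long peaks lay on chromosome 6 from 140099300 to 140161745, 12 on chromosome 9 from 4061770 to 4118539 and 11 on chromosome 9 from 4821189 to 4868324. None of these 3 groups held a starved long peak, but they held 28, 36 and 33 starved peaks of any length, and 11 serum long peaks of each group overlapped one. The background differed between them, with a median of 1.11 times the lowest in the chromosome 6 group and at least 3.26 times in both groups of chromosome 9. Over the whole stretch of chromosome 9 from 4000001 to 5000000 there were 72 serum and 4 starved long peaks, and on chromosome 6 from 140000001 to 141000000 there were 22 and 0. Without these 2 stretches, a comparison added after seeing the data, 8.07% of serum long peaks had another within 10 kb.

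Starved long peaks formed many small groups. The largest held 6 peaks each, on chromosome 7 from 18031822 to 18065841 and on chromosome 1 from 22674404 to 22693485, and 8 groups held 5 each. Of those 8, the one with the tallest peak (pileup 33) lay on chromosome 13 from 25405349 to 25424393. The 3 groups named held 2, 0 and 1 serum long peaks. Of 2629 windows of 1 Mb, 471 held at least 5 starved long peaks and 56 at least 5 serum ones, while 864 (32.9%) held no starved and 1259 (47.9%) no serum long peak. The fullest starved window, chromosome 1 from 63000001 to 64000000, had 36 long peaks, 17 of them of 2000 bp or more, and was also the third of the serum list with 12.

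The range of densities over the chromosomes was wider for starved than for serum long peaks, but this rested on chromosome 12, with 31 starved long peaks. Without chromosome 12 the starved range was not the wider one. Starved long peaks were scarcest on chromosome 12, at 0.588 per Mb (exact 95% Poisson interval 0.400 to 0.835), and densest on chromosome 2, at 3.71 per Mb (interval 3.48 to 3.95), a 6.31-fold range. Chromosomes 11 (3.28 per Mb) and 4 (2.96 per Mb) came next to chromosome 2, and chromosomes 10 (1.12 per Mb) and 19 (1.33 per Mb) next to chromosome 12. Serum long peaks were scarcest on chromosome 10, at 0.417 per Mb (interval 0.307 to 0.555), and densest also on chromosome 2, at 1.51 per Mb (interval 1.36 to 1.66), a 3.62-fold range.

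Chromosome 4 stood at opposite ends of the 2 lists. It had 84 serum long peaks, or 0.456 per Mb (interval 0.364 to 0.565), the second lowest density, and 545 starved ones, or 2.96 per Mb (interval 2.72 to 3.22), the third highest. The ratio of starved to serum long peaks was 6.49 there, with a median of 2.23 over the 20 chromosomes. As a share of the peaks of chromosome 4, long peaks made up 1.06% in serum (interval 0.846 to 1.31), with 1.03% over all chromosomes, and 2.04% in starved cells (interval 1.87 to 2.21), with 1.67% over all. Of its 84 serum long peaks 51 (60.7%) overlapped a starved peak, and 59.5% had a raised background. Over all chromosomes these shares of serum long peaks were 41.3% and 29.6%. The 84 peaks were also taller, with a median pileup of 14 against 9 for all serum long peaks. The same shares over all serum peaks of chromosome 4 were not taken, so they are not read as particular to its long peaks.

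As a share of a chromosome's peaks, long starved peaks went from 0.434% on chromosome 12 (interval 0.295 to 0.616) to 2.45% on chromosome 2 (interval 2.30 to 2.61), a 5.64-fold range. The next lowest starved share was 0.778% on chromosome 10. For serum peaks the share stayed between 0.715% on chromosome 19 and 1.27% on chromosome 9, a 1.78-fold range. Over the 20 chromosomes the densities of the 2 lists had a Spearman rho of 0.395, and 0.540 without chromosome 4. Chromosomes are not replicates, and both lists rest on the same assembly. On chromosome 10, the part beyond 60 Mb held 13 serum and 34 starved long peaks and the part before it 34 and 92.

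**Figure D5:**
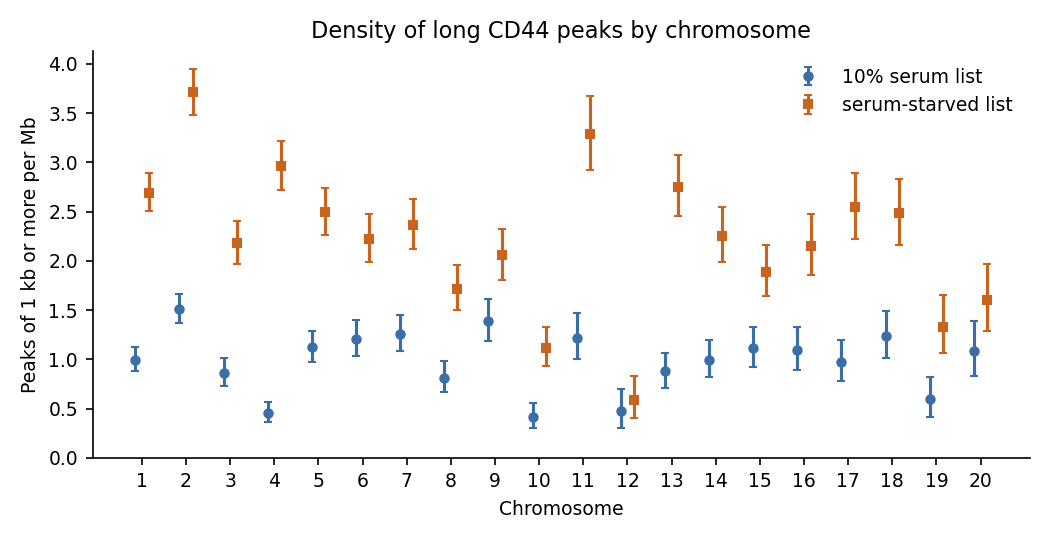
Long peaks per Mb on each of the 20 chromosomes, with blue circles for the serum list, orange squares for the starved list and exact 95% Poisson intervals as bars. Chromosome 4 is low in the serum list at 0.456 and high in the starved list at 2.96, and chromosome 12 is low in both.

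Of the 10 longest serum peaks, 5 lay on chromosome 9 between 4006524 and 4862100. The longest, chromosome 9 from 4623773 to 4629906 (6134 bp), had a pileup of 34 and met 5 starved peaks that covered 36.1% of it. The next, chromosome 6 from 140126710 to 140132387 (5678 bp), stood on the lowest background with a pileup of only 10, and 3 starved peaks covered 14.2% of it. The tallest of these 3 starved peaks had a pileup of 21, and none of them was longer than 298 bp. The third, chromosome 9 from 4804760 to 4810386 (5627 bp, pileup 25), met 5 starved peaks none of which was taller than 3. The peak on chromosome 6 from 30402629 to 30407448 (4820 bp) was the tallest of the 10 over its background, with a pileup of 39 and a fold enrichment of 16.0 at the lowest background. It met 6 starved peaks with pileups up to 5, none longer than 599 bp. The tenth, chromosome 13 from 33587631 to 33590730 (3100 bp), had a pileup of 67 on a background 27.1 times the lowest, and a fold enrichment of 1.63.

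All 10 longest starved peaks met 2 to 5 serum peaks. The longest, chromosome 19 from 62107871 to 62114559 (6689 bp), had a pileup of 12 and met 4 serum peaks that covered 27.5% of it. Chromosome 10 from 12716652 to 12723249 (6598 bp, pileup 15) met 4 that covered 39.2%, chromosome 1 from 212961114 to 212967516 (6403 bp, pileup 8) met 3 that covered 25.7%, and chromosome 3 from 15975964 to 15982243 (6280 bp, pileup 16) met 5 that covered 45.5%. The longest serum peaks that these 4 met were 582, 1051, 773 and 919 bp. Their backgrounds were 2.13 to 4.61 times the lowest, and over all 10 they were 2.0 to 10.6 times.

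The tallest long peaks were a different set from the longest. Among serum peaks the 5 with the highest pileup (124 to 171) were 1061 to 2046 bp long and stood on backgrounds 52.8 to 97.4 times the lowest, so that their fold enrichments were 1.17 to 1.98. The first of them, chromosome 18 from 38415988 to 38417211, had a pileup of 171 and a q of 0.614. In the starved list the tallest was chromosome 14 from 46643281 to 46645222 (1942 bp), with a pileup of 154 on a background 115 times the lowest and a fold enrichment of 12.5. The next 4 had pileups of 51 to 58 and fold enrichments of 24.8 to 31.6. They lay on chromosome 8 from 44991433 to 44992633, chromosome 1 from 183870154 to 183871763, chromosome 9 from 17819106 to 17820847 and chromosome 14 from 16190179 to 16191743. All 5 met exactly 1 serum peak, of 327 to 681 bp.

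The longest peaks without a counterpart were shorter than the longest members. For serum they were chromosome 20 from 1167758 to 1170940 (3183 bp, pileup 13), chromosome 11 from 46253864 to 46256737 (2874 bp, pileup 12), chromosome 14 from 95976732 to 95979512 (2781 bp, pileup 28), chromosome 16 from 22090788 to 22093174 (2387 bp, pileup 60) and chromosome 2 from 147018892 to 147021248 (2357 bp, pileup 14). The first pair stood near the lowest background, at 1.10 and 1.00 times, and the others at 2.23 to 19.9 times. In the starved list they were chromosome 2 from 103768776 to 103772313 (3538 bp, pileup 9), chromosome 14 from 67763189 to 67766521 (3333 bp, pileup 4), chromosome 3 from 42650674 to 42653839 (3166 bp, pileup 16), chromosome 2 from 99168785 to 99171931 (3147 bp, pileup 4) and chromosome 5 from 132693633 to 132696719 (3087 bp, pileup 10). All 5 had a raised background, from 2.13 to 10.3 times the lowest.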

How the data were processed

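The authors deposited 1 peak list per condition. The submitters' processing notes name FastQC, STAR 2.5.3a, MACS2 2.1.1 and the assembly Rnor_6.0. How reads were filtered, scaled or merged into peaks is not given in the sources used here for either list. Per the file headers each row holds a length in bp, a fold enrichment (a ratio of height to local background), a p-value, a q-value (FDR) and a pileup signal. Each list was matched to its CD44 library through the prefix that peak names share with the library title.

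Local background was taken from the deposited pileup and fold: 1 was added to the pileup, the sum divided by the fold, and 1 subtracted. Overlaps, coverage by the other list, gaps and densities came from scripts tested on simulated peaks (Python 3.11.15, pandas 2.3.3, numpy 2.4.6, scipy 1.17.1), and figures from matplotlib 3.10.9. Densities used the end of a chromosome's last peak in any list as its length. Single peaks named are the 10 longest, the 5 of highest pileup, the 5 longest without a counterpart and the 3 largest groups per list. The members and limits were chosen with earlier results of these data known. Stretches, middle bases and pileup classes were added after seeing the data. Alternatives were a length of 1500 bp, a q of at most 0.05, chromosome X, stricter overlaps, a distance of 100 kb and a background limit of 5 times. Read totals and input tracks were not used here, so the depth is unknown.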

Additional observations from a re-analysis of the deposited data

Results flagged for a closer look

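Long peaks outside chromosomes 1 to 20 were not used in the main comparisons and are given here for completeness. Chromosome X had 461 serum long peaks (1.61% of its serum peaks) and 720 starved ones (2.91%). Of these, 191 (41.4%) and 530 (73.6%) overlapped a peak of the other list, against 41.3% and 65.8% of the long peaks on chromosomes 1 to 20. The share over all peaks of chromosome X was not taken, so these values are not set against its shorter peaks. Chromosome Y had 6 serum and 43 starved long peaks. Unplaced scaffolds had 51 serum long peaks (3.22% of their serum peaks) and 416 starved ones (7.34%), the longest 2430 and 5377 bp. The mitochondrial genome had 0 long peaks among its 0 serum and 3 starved peaks.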

How the results depend on the processing

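No paired analysis was possible because there was 1 CD44 library in each condition, so none could be left out either. A minimum length of 1500 bp left 247 serum and 2227 starved peaks. Of these, 63.6% and 81.2% overlapped a peak of the other list, the median pileups were 16 and 8, 13.4% and 22.5% had another such peak within 10 kb, and 53.8% and 89.3% had a raised background. A q of at most 0.05 left 1489 serum long peaks, of which 51.6% overlapped a starved peak, with a median pileup of 11, 12.3% near another and 35.7% of raised background; the overlap of starved long peaks was then 67.1%. Where 50% of a long peak had to be covered, 19.2% of serum and 17.9% of starved long peaks were found again. Against only long peaks of the other list it was 14.0% and 6.09%, and by the middle base 21.6% and 29.2%. Within 100 kb, 35.1% of serum and 69.4% of starved long peaks had another. A limit of 5 times the lowest background was passed by 8.31% and 20.4%. Without the 2 densest serum stretches of 1 Mb, 8.07% of serum long peaks lay within 10 kb of another. Adding chromosome X moved none of the 10 results beyond their intervals, or the numbers beyond 1.5 times. The starved share of overlap was above the serum share in the main comparison. Where 50% had to be covered the starved share was lower, but the intervals overlapped (starved 16.9 to 18.9, serum 17.7 to 20.7). The 50% share over all peaks of a list was not taken. Where the counterpart had to be long the starved share was also lower, with 2670 serum long peaks to meet against 6324 starved ones.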
